A study of Homo sapiens with 6 samples.

Results

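NuA4, also called the TIP60 complex, is a histone acetyltransferase of many subunits, and the genes described here encode 10 of them: ING3, YEATS4, KAT5, EP400, TRRAP, MEAF6, MBTD1, EPC1, DMAP1 and MORF4L1. They were chosen by name, as subunits of the complex, with their values in the comparison below already known, ING3 and YEATS4 in particular. What follows on these 10 genes is therefore a description, and no test of theirs is offered as support. Every probe set annotated to 1 of these genes and to no other was taken, which gave 28 of the 41091 single-gene probe sets on the array. All 10 genes were measured, out of 19777, and 0 probe sets named a member together with another gene.

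RNA came from MDA-MB-231, an established human breast cancer line. Of 6 samples, 3 had received a non-targeting control siRNA and 3 an siRNA directed at ING2, each hybridised to 1 array. A single ING2 siRNA was named in the labels, with the transfection reagent Dharmafect 1, so an effect of that one molecule on other transcripts and an effect of losing ING2 cannot be told apart. RNA was taken 4 days after transfection according to the treatment description and 3 days according to the extraction description. Nothing in the labels says that replicates were separate cultures, so the spread between them may be technical. All samples are bulk RNA, in which fewer cells and less RNA per cell cannot be told apart.

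NuA4 acetylates the tails of histones H4 and H2A, and it serves gene activation and the repair of broken DNA. KAT5 (TIP60) is the catalytic subunit. EPC1, MEAF6 and ING3 join KAT5 in the small module that acetylates nucleosomes, and ING3 carries a PHD finger that reads methylated histone H3. TRRAP is a very large scaffold that meets transcriptional activators, and EP400 is an ATPase that exchanges the histone variant H2A.Z. YEATS4 (GAS41) reads acylated lysines through its YEATS domain, MBTD1 reads methylated histone H4 through MBT repeats, and MORF4L1 (MRG15) reads methylated histone H3 through a chromodomain. DMAP1 is a structural partner of YEATS4. ING2, the targeted gene, belongs instead to a SIN3 histone deacetylase complex, which MORF4L1 also joins.

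The promoters of 4 members that read lower after ING2 siRNA and of EP400, whose probe sets all had values above 0, are shown so that genes with like values can be compared at their start sites. The RefSeq promoter table (GRCh38.p14) held 8 of the 10 members, and ING3 and TRRAP were not among them. Each line gives 100 bases before to 50 bases after the start, read 5′ to 3′ on the gene's strand, with capitals marking matches, on either strand, to the motifs named below.
YEATS4, chr12:69359643-69359792, plus strand: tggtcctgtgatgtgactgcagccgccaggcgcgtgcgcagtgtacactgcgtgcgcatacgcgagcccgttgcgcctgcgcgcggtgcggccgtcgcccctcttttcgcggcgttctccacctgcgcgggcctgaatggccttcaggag
MEAF6, chr1:37514717-37514866, minus strand: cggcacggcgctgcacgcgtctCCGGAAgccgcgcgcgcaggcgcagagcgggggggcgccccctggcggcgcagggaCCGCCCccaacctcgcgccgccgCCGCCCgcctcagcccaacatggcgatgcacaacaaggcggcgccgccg
MBTD1, chr17:51260000-51260149, minus strand: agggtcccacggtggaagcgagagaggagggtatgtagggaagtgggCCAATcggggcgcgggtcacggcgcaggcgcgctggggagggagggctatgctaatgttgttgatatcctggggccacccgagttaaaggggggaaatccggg
MORF4L1, chr15:78872790-78872939, plus strand: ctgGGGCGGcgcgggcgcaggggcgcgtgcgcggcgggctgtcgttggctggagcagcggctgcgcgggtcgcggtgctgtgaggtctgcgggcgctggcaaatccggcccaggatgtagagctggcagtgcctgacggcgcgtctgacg
EP400, chr12:131949842-131949991, plus strand: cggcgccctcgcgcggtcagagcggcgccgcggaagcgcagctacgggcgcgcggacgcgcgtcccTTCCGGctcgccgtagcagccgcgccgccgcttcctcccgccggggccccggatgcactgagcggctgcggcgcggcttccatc

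Over the full 300 bases of the table, 7 motifs were searched on both strands, and no match overlapped a match to another motif in a member. Members were counted by gene, with a match in any promoter of the gene, and the percentages are by promoter. EPC1 had more than a single promoter, so the units differ for it. The GC box GGGCGG was present in 5 of the 8 members (KAT5, EP400, MEAF6, EPC1 and MORF4L1) and in 45.0% of all 35116 promoters. The ETS core CCGGAA was present in KAT5, EP400, MEAF6 and DMAP1, and in 17.2% of all promoters. The CCAAT box, searched as CCAAT, was present in MBTD1, EPC1 and DMAP1, and in 34.6% of all promoters. KAT5 held the YY1 motif AAGATGGC (2.89% of all promoters) and the E-box CACGTG (7.26%). The TATA box TATAAA (11.5% of all) and GCATGCGC, searched as an NRF1 half-site (3.05%), were in none of the 8. Only exact strings were searched, so other forms of these motifs, of NRF1 among them, were not counted. YEATS4, the member with the largest difference, held none of the 7 strings searched. Its promoter had 22 CpG dinucleotides, MBTD1 18, MEAF6 40, MORF4L1 33 and EP400 51, against a median of 14 over all promoters of the table. Among the 4 lower members shown, none of the 7 strings was in all of them, and the GC box was in MEAF6 and MORF4L1 as well as in EP400.

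ING2 mRNA itself stood at 12.5% of the control level by its brightest probe set, with no overlap between the groups. Its other, dimmer probe set, 213544_at, stood at 36.5% of control, also without overlap. Over all genes the difference depended on brightness: the median log2 difference was 0.15 among dim genes and -0.09 in the brightest of 10 equal bins. The spread of log2 intensity within an array (interquartile range) was 3.35 ± 0.02 in control arrays and 3.18 ± 0.08 in ING2 siRNA arrays (SD, n = 3). The excess of GAPDH 3' over 5' signal, a sign of RNA quality, also moved with the groups: it was 0.205 ± 0.015 log2 units in control arrays and 0.316 ± 0.042 in ING2 siRNA arrays (SD, n = 3). The part of either in the values below was not tested, except that the members are also given after scalings that remove the brightness trend. All 4 mesenchymal markers fixed for the line (VIM, CD44, CAV1 and AXL) lay at percentiles 96.2 to 99.6 of genes by brightness. The 6 luminal markers lay at percentiles 5.50 to 55.6, the 4 fibroblast markers at 23.1 to 45.4 and the 4 measured blood markers at 8.53 to 45.6. The mean log2 level of fibroblast markers was 6.20 to 6.33 in control arrays and 6.14 to 6.28 after ING2 siRNA, and that of blood markers 5.79 to 5.97 and 5.82 to 5.91. Of these, the fibroblast marker LUM and the blood marker LYZ were called lower and the fibroblast markers DCN and PDPN higher, and their part in the results was not tested. By limma with Benjamini-Hochberg adjustment over all genes, 924 genes were called lower and 716 higher at an adjusted p under 0.05. The split was 1450 and 260 after median centring of the arrays, 623 and 944 under quantile normalization and 686 and 447 under cyclic loess.

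Among the 10 members, YEATS4 read lowest against control, at 54.3%. MBTD1 stood at 68.8%, MEAF6 at 75.4%, ING3 at 75.8% and MORF4L1 at 79.6% of control by the brightest probe set of each gene. In those 5 genes, every array of the ING2 siRNA group was below every control array. The catalytic subunit KAT5 (102%), the scaffold TRRAP (113%), the ATPase EP400 (119%), EPC1 (95.5%) and DMAP1 (92.0%) had groups that overlapped. Of the 5 genes without overlap, YEATS4, MBTD1, ING3 and MORF4L1 encode readers of histone marks and MEAF6 does not, a grouping made after the values were seen. It was not tested and does not extend to every reader in the complex. The bromodomain protein BRD8, a subunit outside the 10, had overlapping groups by its brightest probe set (log2 -0.06).

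**Figure D1:**
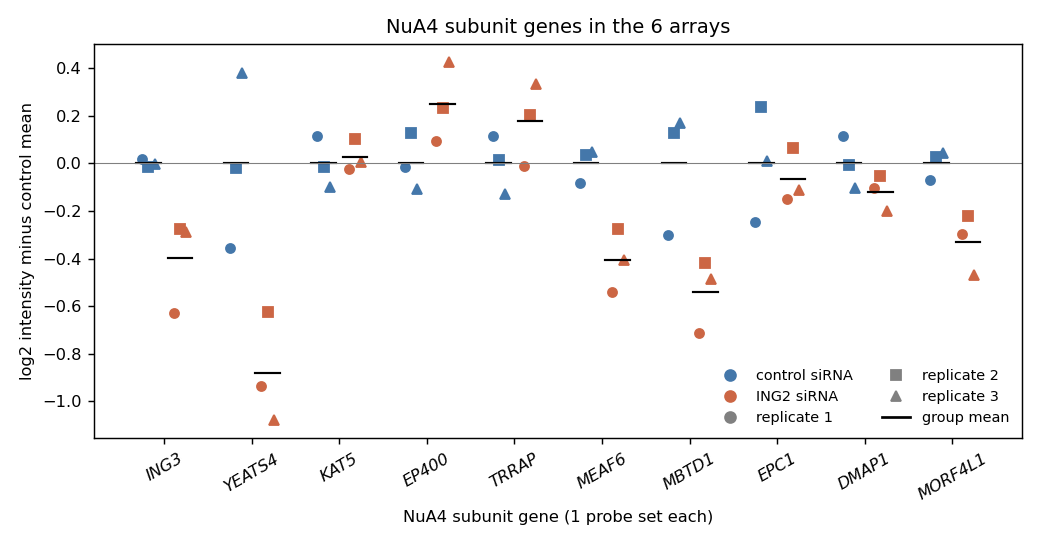
Log2 intensity of each member's brightest probe set minus its control mean (y axis) for the 10 genes (x axis), with 1 point per array, symbols for replicates and a bar for each group mean. All ING2 siRNA points of ING3, YEATS4, MEAF6, MBTD1 and MORF4L1 lie below the control points, and the groups mix in the other 5 genes.

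YEATS4 had 1 probe set, 218911_at. It read 216, 272 and 359 intensity units in control replicates 1, 2 and 3 and 145, 179 and 131 units after ING2 siRNA. The control arrays differed among themselves more than for any other member (SD 0.37 on the log2 scale, against 0.02 to 0.26 for the other 9), and the highest ING2 siRNA value lay below the lowest control. The log2 difference was -0.88 (SE 0.17, n = 3 per group), while genes of like brightness had a median of 0.05. Leaving out each array in turn gave values from -1.06 to -0.69, the smallest in size without control replicate 3.

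ING3 had 4 probe sets. The brightest, 242293_at, had 245, 239 and 241 units as control values and 156, 199 and 198 units in ING2 siRNA arrays. Controls were close together and ING2 siRNA replicate 1 was the lowest array. The log2 difference was -0.40 (SE 0.10, n = 3 per group). Probe set 231863_at read 131, 159 and 166 units in controls and 94.3, 110 and 88.8 units with ING2 siRNA (log2 -0.64, SE 0.12). Probe set 205070_at went from 174, 170 and 158 units to 121, 141 and 141 units, a log2 difference of -0.32 (SE 0.10). The 3 brighter probe sets of ING3 thus all read lower without overlap, and fitted over all probe sets only 231863_at was called. The fourth, 230719_at, was dim, between 14.1 and 17.9 units on all arrays, with groups that overlapped (log2 -0.08, SE 0.11).

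MORF4L1, among the brightest genes on the array (percentile 98.4), had 3 probe sets and all read lower without overlap. Probe set 217982_s_at read 7572, 8093 and 8171 units in controls and 6470, 6803 and 5741 units with ING2 siRNA (log2 -0.33, SE 0.09, n = 3 per group). Probe set 224561_s_at read 4949, 5122 and 4917 units in controls and 3793, 3697 and 3677 units after ING2 siRNA (log2 -0.42, SE 0.08). The size differed between probe sets of this gene. The largest difference was at 221381_s_at, with 2585, 2751 and 2854 units in controls and 1558, 1656 and 1605 units after ING2 siRNA, 58.9% of control (log2 -0.76, SE 0.08). Probe sets as bright had a median of -0.10, so each of the 3 lay below the trend. The MORF4L1 value of the brightest probe set became -0.21 with cyclic loess and -0.24 with quantile normalization.

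MBTD1 was read by 226797_at at 293, 395 and 407 units in controls and 221, 270 and 258 units after ING2 siRNA. Control replicate 1 lay nearest to the ING2 siRNA arrays, and the groups did not overlap. The log2 difference was -0.54 (SE 0.13, n = 3 per group). A dim probe set, 243552_at, read 17.1, 17.6 and 17.1 units in controls and 13.5, 12.6 and 12.8 units after ING2 siRNA (log2 -0.42, SE 0.08). Probe sets of its brightness had a median of 0.12, of the other sign. The dimmest MBTD1 probe set, 207115_x_at, lay between 8.24 and 13.1 units with overlapping groups (log2 -0.13, SE 0.16).

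The probe sets of MEAF6 disagreed. The brightest, 218165_at, read 1038, 1126 and 1137 units in controls and 756, 908 and 829 units after ING2 siRNA, without overlap (log2 -0.41, SE 0.09, n = 3 per group). The others, 228517_at and 230293_at, overlapped between the groups and stood at 99.7% and 97.6% of control. The first of these read 159, 193 and 183 units in controls and 175, 188 and 169 units after ING2 siRNA. Which transcript forms each MEAF6 probe set detects was not analysed here.

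KAT5, the acetyltransferase itself, read 842, 768 and 725 units in controls and 764, 832 and 778 units after ING2 siRNA by 206689_x_at. The groups were mixed, with a log2 difference of 0.03 (SE 0.09, n = 3 per group). Its sign turned to -0.045 after median centring, and the other KAT5 probe sets had values of -0.02 (SE 0.08) and -0.06 (SE 0.08). The last of these, 214258_x_at, was lower without overlap by a small step, from 650, 625 and 627 units to 603, 612 and 608 units. All 3 KAT5 probe sets are of the _x_at type, whose probes can also match other transcripts, so they are less certain as a reading of this gene. EPC1, the subunit that holds the catalytic module together, had 4 probe sets, with log2 differences from -0.22 to 0.09, and all 4 had overlapping groups. Its brightest read 888, 1239 and 1059 units in controls and 947, 1099 and 974 units after ING2 siRNA. That value (log2 -0.07, SE 0.12) turned to 0.023 with cyclic loess and 0.051 with quantile normalization. The second brightest EPC1 probe set, 225417_at, stood at 85.7% of control (log2 -0.22, SE 0.12). The EPC1 values above 0, of 223875_s_at (0.09) and 238633_at (0.05), came from dimmer probe sets. The catalytic module was thus mixed. ING3 read lower without overlap by 3 of 4 probe sets and MEAF6 by 1 of 3. KAT5 lay near 0, and EPC1 ran from -0.22 to 0.09 with overlapping groups.

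EP400 read 257, 284 and 241 units in controls and 277, 305 and 349 units with ING2 siRNA by 212375_at, and its groups overlapped (log2 0.25, SE 0.11, n = 3 per group). All 4 EP400 probe sets had values above 0, from 0.25 to 0.36. At 212376_s_at the groups did not overlap, with 153, 165 and 141 units in controls and 190, 181 and 217 units after ING2 siRNA (log2 0.36, SE 0.10). TRRAP read 1087, 1011 and 917 units in controls and 995, 1155 and 1264 units after ING2 siRNA (log2 0.18, SE 0.11, n = 3 per group), and its other probe set had a value of 0.04 (SE 0.10). Both are the very large proteins of the complex, and neither was read lower by any of their 6 probe sets. DMAP1 read 526, 483 and 452 units in controls and 452, 468 and 423 units with ING2 siRNA, and its groups overlapped (log2 -0.12, SE 0.09).

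**Figure D2:**
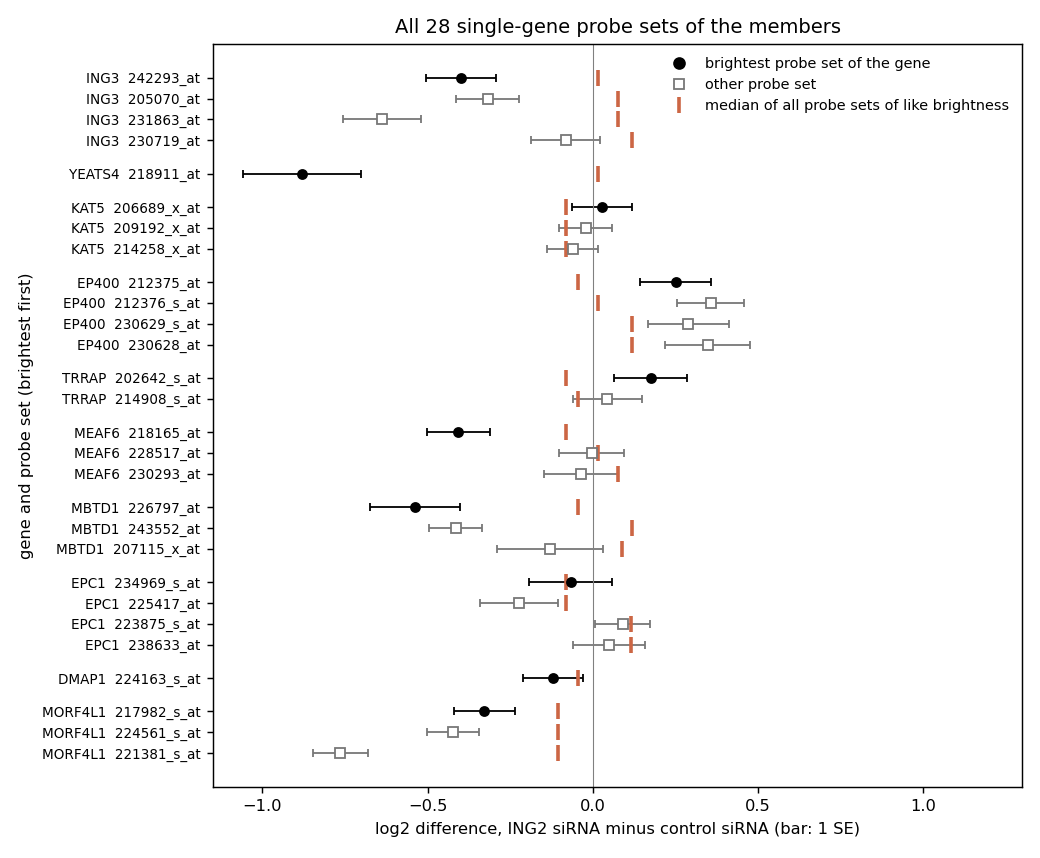
Log2 difference, ING2 siRNA minus control, with 1 SE (x axis) for all 28 probe sets of the members (y axis). Filled circles are the brightest probe set of each gene, open squares the others, and vertical marks the median of all probe sets of like brightness. Values of ING3, MBTD1 and MORF4L1 lie to the left of those marks in every probe set, those of EP400 to the right in all 4, and MEAF6 is split between -0.41 and values near 0.

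Of the 10 members, 4 were called lower by limma (YEATS4, MBTD1, MEAF6 and ING3), beside 4.67% of all genes, and 0 higher, beside 3.62% of all genes. MORF4L1 lay at the threshold (limma adjusted p = 0.0503), and 2 of its 3 probe sets were called lower. At an unadjusted p under 0.05, 5 members were lower, beside 13.6% of all genes, and 1, EP400, was higher, beside 19.4% of all genes. Groups did not overlap in 5 members, all of them lower, beside 13.8% of all genes lower and 22.8% higher. Of the 28 probe sets, 7 were called lower, beside 5.12% of all probe sets, and 0 higher, beside 2.18%, with 4 higher at an unadjusted p under 0.05, all of EP400, beside 16.1% of all probe sets. Without overlap, 11 probe sets were lower and 1 was higher, beside 14.4% and 20% of all probe sets. Because the members were picked with this comparison known, nothing is read from these counts. The median log2 difference over the members was -0.22, against 0.06 over all genes. For the 8 members with several probe sets, 6 had all of them on the same side of 0 (75%), as had 55.8% of the 10523 such genes on the array.

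The number of calls changed with the arrays kept. When either control replicate 2 or 3 was dropped, or replicate 1 or 3 of the ING2 siRNA group, 0 members were called, and the number called over all genes was 2 or 3. With control replicate 1 dropped 4 members were called, and with ING2 siRNA replicate 2 dropped 5. The members' median lay between -0.28 and -0.17 over all 6 of these fits. The members without overlap also shared an order of arrays. ING2 siRNA replicate 2 was the highest of its group in all 5, and control replicate 1 was the lowest of the controls in 4 of the 5, ING3 being the exception. How many of all genes had this order was not counted, so whether it is particular to the members is not known. Over all genes, ING2 siRNA replicate 2 correlated with the controls at 0.9959 to 0.9969, and replicates 1 and 3 at 0.9923 to 0.9955. Control replicate 1 correlated with the other controls at 0.9964 and 0.9967, and those with each other at 0.9981.

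**Figure D3:**
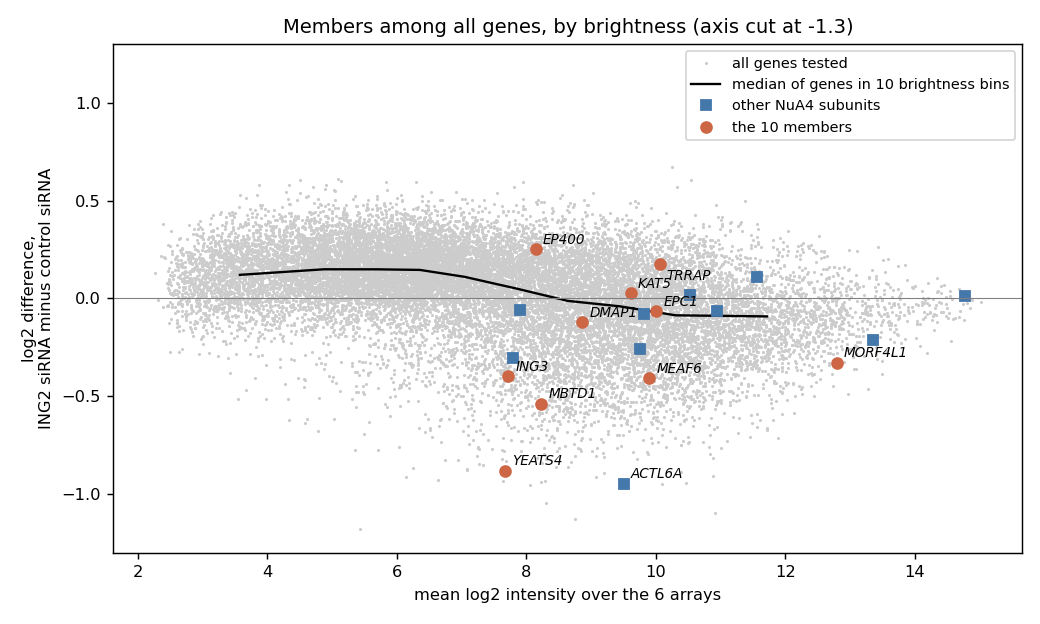
Log2 difference, ING2 siRNA minus control (y axis), against mean log2 intensity over the 6 arrays (x axis), for all genes (grey), the 10 members (circles), the other NuA4 subunits (squares) and the median in 10 bins of brightness (line). ING2 lies below the axis limit. YEATS4 and ACTL6A lie near -0.9, far below the line, while KAT5, EPC1 and DMAP1 lie close to it.

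YEATS4 read lowest and MBTD1 next lowest under each scaling of the arrays. With cyclic loess, which removes a trend with brightness, YEATS4 had a log2 difference of -0.90, MBTD1 -0.52, ING3 -0.41 and MEAF6 -0.32. Quantile normalization gave -0.86, -0.47, -0.37 and -0.29 for the same genes in that order. YEATS4 and MBTD1 were called lower under both scalings. ING3 was called after cyclic loess but not after quantile normalization, and MEAF6 was called under neither. EP400 and TRRAP had values above 0 under each scaling, from 0.10 to 0.32.

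**Figure D4:**
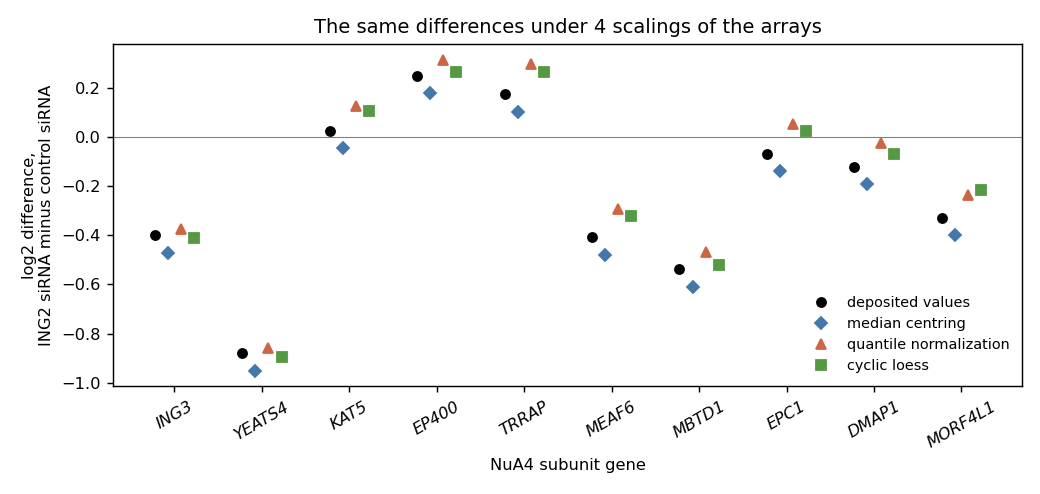
Log2 difference, ING2 siRNA minus control (y axis), of the 10 members (x axis) in the deposited values and after 3 other scalings of the arrays. The 5 members without overlap stay below -0.2 in all 4, EP400 and TRRAP stay above 0, and KAT5 and EPC1 change sign.

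The remaining subunits of the complex were read from a list of 10 further genes, all measured. That list and those below were written with earlier results of these data known, so their values are also a description. ACTL6A, an actin-related protein that NuA4 shares with other remodelling complexes, fell. It read 845, 976 and 1254 units in controls and 423, 617 and 554 units after ING2 siRNA, 51.9% of control (log2 -0.95, SE 0.16, limma adjusted p = 0.0212). The groups did not overlap, and the adjusted p was 0.0195 with cyclic loess and 0.0239 with quantile normalization. With 1 array dropped, ACTL6A passed in 2 of 6 fits (those lacking control replicate 1 or replicate 2 of the ING2 siRNA group), with values from -1.08 to -0.79.

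The other 9 did not pass. MRGBP, which binds MORF4L1, had a log2 difference of -0.26 (SE 0.08) and MORF4L2, a close relative of MORF4L1, -0.21 (SE 0.08), both without overlap between the groups. JAZF1 stood at -0.30 (SE 0.11) with overlapping groups. Values for the AAA+ ATPases RUVBL1 and RUVBL2 were -0.08 and 0.11, and that for ACTB, the actin subunit, was 0.01. The bromodomain protein BRD8 had -0.06, EPC2, a paralogue of EPC1, -0.06, and VPS72, an H2A.Z chaperone, 0.02. RUVBL1 and BRD8 were above 0 after cyclic loess (0.0069 and 0.037) and quantile normalization (0.032 and 0.069). ACTB (-0.058) and VPS72 (-0.053) were below 0 after median centring. Of the 10, 1 was called lower, beside 4.67% of all genes, and 0 higher, beside 3.62%. At an unadjusted p under 0.05 by limma 4 were lower, beside 13.6% of all genes, and 0 higher, beside 19.4%. The median was -0.07, and 0.0075 with quantile normalization.

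Complexes that share subunits with NuA4 were read against the same shares of all genes, 4.67% called lower and 3.62% called higher. At an unadjusted p under 0.05 the shares of all genes were 13.6% lower and 19.4% higher. H2AZ2, UCHL5, TADA1 and PHF20 below each passed in the same 2 of 6 fits with an array dropped as ACTL6A. In the SRCAP complex with its H2A.Z histones, the median was -0.19, and -0.085 with cyclic loess and -0.074 with quantile normalization. Of its 11 genes, 5 were lower and 1 higher at an unadjusted p under 0.05. After adjustment 3 of the 11 were called lower and 0 higher. These were YEATS4, ACTL6A and H2AZ2, which encodes an H2A.Z histone. H2AZ2 fell from 4198, 4653 and 5185 units to 3065, 3488 and 3475 units (log2 -0.48, SE 0.10, limma adjusted p = 0.0295, and 0.0524 with cyclic loess). Its probe sets disagreed: 212206_s_at stood at 69.5% of control without overlap, while 202487_s_at (93.0%) and 227085_at (94.8%) had overlapping groups. In the INO80 remodelling complex, ACTL6A and the deubiquitinase gene UCHL5 (log2 -0.46, SE 0.11, limma adjusted p = 0.0369, and 0.0539 after cyclic loess) fell among 15 genes. The other UCHL5 probe sets ranged from 58.1% to 97.9% of control. The median was 0.02, and 0 genes were called higher. Of the 15, 3 were lower and 1 higher at an unadjusted p under 0.05.

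TRRAP also belongs to SAGA, another acetyltransferase complex. Of 20 measured SAGA genes, 4 were lower and 1 higher at an unadjusted p under 0.05, and the median was 0.01. After adjustment 1 fell and 0 rose. The gene was TADA1, a structural subunit, at 969, 1168 and 1131 units in controls and 789, 796 and 779 units after ING2 siRNA (log2 -0.46, SE 0.09, limma adjusted p = 0.0266, and 0.0405 after cyclic loess). A dim TADA1 probe set, below 20 units, read 111% of control with overlapping groups. MEAF6 also serves complexes around other acetyltransferases of the KAT5 family. Of 23 such genes, 3 were lower and 1 higher at an unadjusted p under 0.05. Their median was -0.02, and 0.067 with cyclic loess. After adjustment 2 of the 23 were called lower and 0 higher. These were MEAF6 and PHF20, a reader subunit of the KAT8 complex (log2 -0.42, SE 0.09, limma adjusted p = 0.0306, and 0.0531 after cyclic loess). PHF20 was uncertain, since its other bright probe set, 235389_at, stood at 104% of control with overlapping groups, and 3 further ones ranged from 75.1% to 113%, also with overlap.

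Of the 4 genes with a YEATS domain, YEATS4 was called lower and 0 were called higher. At an unadjusted p under 0.05, 1 was lower and 1 higher, beside 13.6% and 19.4% of all genes. MLLT1, named after its values were seen, lay at the threshold, higher without overlap (log2 0.33, SE 0.09, limma adjusted p = 0.05002). It passed with cyclic loess (0.0374) and quantile normalization (0.0307), but not after median centring (0.0914). With 1 array dropped MLLT1 passed in 2 of 6 fits. Its other, dim probe set, 214477_at, had overlapping groups (log2 0.12, SE 0.11). Of the 5 genes of the ING family, ING2 and ING3 were called lower and 0 higher. Without adjustment 2 of the 5 were lower and 1 higher at a p under 0.05. ING1, also named after its values were seen, had a log2 difference of 0.25 (SE 0.08, limma adjusted p = 0.0812). It passed as higher with cyclic loess (limma adjusted p = 0.0453) and quantile normalization (0.0354), but not after median centring (0.223). That reading is from 208415_x_at, also of the _x_at type. The other ING1 probe sets had overlapping groups, with log2 differences from -0.08 to 0.14. None of 7 partners and relatives of MORF4L1 was called (2 higher and 2 lower at an unadjusted p under 0.05). The smallest p among them were those of SIN3B, a scaffold of the deacetylase complex that MORF4L1 joins (log2 0.31, SE 0.10, limma adjusted p = 0.0661), and MORF4L2 (-0.21, SE 0.08, limma adjusted p = 0.0977). Under quantile normalization SIN3B passed as higher (log2 0.40, limma adjusted p = 0.0382), but not with cyclic loess (0.0522) or median centring (0.144).

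Profiles over the 6 arrays were also compared among 9640 named genes brighter than the median gene. Each value was taken relative to the gene's control mean, and likeness was the root mean square difference on the log2 scale. Nearest to ING3 were MEIS3P1 (0.066), PNMA1 (0.067), PTPRR (0.068) and CRIM1 (0.069). Nearest to YEATS4 were IKBIP (0.089), TVP23B (0.091), SLC16A4 (0.10) and NCEH1 (0.11), with log2 differences from -0.95 to -0.78. These profiles share the same 6 arrays, and likeness over so few is a description.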

How the data were processed

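Biotin-labelled cRNA of 6 samples was hybridised to 1 array each. The authors deposited linear probe set intensity values (4.05 to 33803), made with RMA under R 2.12 per the submitters' processing notes. The step to a linear scale was not given in the sources used here. Precision is limited by the number of arrays.

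Of 54675 probe sets, 62 controls were left out, 41091 named 1 gene, 1801 several and 11721 none, by a 2016 platform annotation with symbols updated through RefSeq gene identifiers (19735 of 19777 genes matched). Each gene was represented by its brightest probe set over all arrays, and every single-gene probe set was also fitted on its own. SEs of other probe sets come from that second fit. The log2 of each deposited value, with no pseudocount or filter, was fitted as ING2 siRNA minus control by lmFit and eBayes of limma 3.58.1 under R 4.3.3, with Benjamini-Hochberg adjustment over all genes or probe sets and a threshold of 0.05. The fitting step was tested on simulated data with independent noise and no brightness trend or array effect. That test therefore says nothing of how such features bear on the calls here. Percentages of control are 2 raised to the log2 difference, and brightness bins are 10 groups of equal size.

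The members and lists were chosen with earlier results of these data known. Named genes were ING2, all members, all other NuA4 subunits, list genes past the threshold (up to 4 each way, or the 2 of smallest p) and the 4 nearest profiles to ING3 and YEATS4. Alternatives were median centring, quantile normalization, cyclic loess with 3 iterations, no dim probe sets, an intensity trend with a robust prior, array weights, the replicate block, each array left out, and other ways to choose a gene's probe set.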

Additional observations from a re-analysis of the deposited data

How the results depend on the processing

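Precision is limited by 3 arrays a group, and dim probe sets such as those of MBTD1 and ING3 below 20 units say little. Members called lower were 4, with 2 after quantile normalization and 0 to 5 with 1 array left out. Member probe sets called lower were 7, with 4 after quantile normalization and 1 to 8 with 1 array left out. Those called higher were 0, with 1 under array weights, without dim probe sets and with an intensity trend and robust prior, and 0 to 2 with 1 array left out. The members' median of -0.22 was -0.14 after cyclic loess, -0.13 after quantile normalization and with the mean of probe sets, -0.30 after median centring and -0.32 when the probe set with most spread (interquartile range) stood for a gene.

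Other NuA4 subunits called lower were 1, with 4 under array weights, 2 without dim probe sets, with an intensity trend, with the mean of probe sets and after median centring, and 0 to 2 with 1 array left out. Those called higher were 0, with 2 for the most spread probe set. Genes of all lists that are no members, ING2 included, gave 6 calls lower, with 10 after median centring, with an intensity trend and with the replicate block, 3 after cyclic loess, 13 under array weights and 1 to 9 with 1 array left out. They gave 0 calls higher, with 6 after quantile normalization and for the most spread probe set, 5 under array weights, 2 after cyclic loess and with the mean of probe sets, 1 without dim probe sets, with an intensity trend and with the block, and 0 to 2 with 1 array left out. Why the counts moved was not tested.

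MORF4L1 passed as lower in 7 of 9 alternatives other than leaving out an array, MEAF6 in 6, ING3 in 8, and YEATS4 and MBTD1 in all 9. Signs turned where values were near 0. KAT5 was -0.045 after median centring, -0.019 with the mean of probe sets and -0.023 to 0.085 with 1 array left out. EPC1 was 0.051 after quantile normalization, 0.023 after cyclic loess and -0.19 to 0.051 with 1 array left out. RUVBL1 was 0.032 and 0.0069, and BRD8 0.069 and 0.037, under the same 2 scalings. BRD8 was also 0.16 with the mean of probe sets and 0.49 (limma adjusted p = 0.0163) with the most spread probe set, a dim one. After median centring ACTB was -0.058 and VPS72 -0.053. With 1 array left out ACTB ranged from -0.0045 to 0.036, VPS72 from -0.024 to 0.081 and EPC2 from -0.16 to 0.070.

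Same-numbered control and ING2 siRNA arrays had correlations of their deviations from group means of 0.26, 0.29 and -0.02. Those of differently numbered arrays ran from -0.31 to 0.10. These values do not settle whether the numbers mark pairs, and the main fit treated the arrays as unpaired. With the replicate block 5 members and 8 member probe sets were called lower, and 1 other NuA4 subunit. Over all genes the block fit called 1878 lower and 1630 higher, against 924 and 716 in the main fit.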
